A study of Arabidopsis halleri with 12 samples.

Results

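The nad genes of plant mitochondria were examined in root RNA of Arabidopsis halleri, a plant that accumulates zinc in its leaves. Every probe set annotated to exactly 1 gene whose symbol begins with lowercase nad followed by a digit was taken. This gave 15 of the 22746 probe sets tested, and they covered 8 of the 13350 genes that had such a probe set. Of these, nad1 had 7 probe sets, nad5 had 2, and nad2, nad4, nad4L, nad6, nad7 and nad9 had 1 each. Probe sets of 1 gene need not read the same transcript, and they are not replicates of a condition.

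Root RNA was hybridised to 12 single-colour arrays with biotin-labelled RNA, 3 in each of 4 groups. A group was either the Langelsheim wild type (WT) or AhNAS2-RNAi-1-2 (RNAi), a single line with RNA interference against AhNAS2. AhNAS2 encodes a nicotianamine synthase, and nicotianamine binds zinc, iron and copper in plants. Both lines were vegetatively propagated clones, 5 weeks old, grown in hydroponic control Hoagland medium or in this medium with 10 µM zinc added. Each sample pooled 3 plants and 3 independent experiments were done, though the labels do not link replicate numbers to experiments. The p-values therefore measure the spread between these pooled samples, and effects of the suppression cannot be told apart from other differences between the RNAi line and WT. The targeted gene is not analysed here.

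Complex I of the respiratory chain takes electrons from NADH, passes them to ubiquinone and pumps protons out of the mitochondrial matrix. In plants the nad genes in the mitochondrial genome encode its core membrane subunits and a pair of core subunits of the arm that reaches into the matrix, while the nuclear genome encodes the remaining subunits. The nad2, nad4 and nad5 proteins are the large membrane subunits that resemble cation antiporters and carry out proton pumping. The nad1, nad4L and nad6 proteins lie in the membrane beside the quinone site, and nad7 and nad9 belong to the matrix arm. Messages of nad1, nad2 and nad5 are pieced together by trans-splicing of separate transcripts. No sequences are printed, because none were used here.

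Values are log2 signals as deposited. A difference above 0 means a higher signal in RNAi than in WT, or with zinc than without, and each comes from limma with its standard error (SE). The threshold was an adjusted p of 0.05, Benjamini-Hochberg over all 22746 probe sets of a comparison. The array medians lay between 5.34 and 5.38, and 12 of the 15 nad probe sets had a mean below the lowest of them. At such low signals a difference may go unseen, and whether a probe set stood above background was not measured. The probes were designed for Arabidopsis thaliana, so a signal also depends on how well the A. halleri transcript matches them. Root identity could be checked with 2 of 14 root markers, the root hair expansins EXPA7 (8.30 ± 0.25, SD, n = 3, in WT control) and EXPA18 (7.22 ± 0.22). With zinc these differed by -0.48 and -0.46 over both lines (limma adjusted p = 0.656 and 0.714), and their part in the nad values was not tested. None of the 14 nuclear shoot markers had a named probe set. In whole roots, fewer cells of a type and less RNA per cell cannot be told apart.

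No nad probe set passed the threshold in any of the 7 comparisons. The clearest zinc difference was that of nad2, at 1.54-fold over both lines, and the clearest line differences were those of nad4L (1.40-fold higher in RNAi) and of 1 of the nad5 probe sets (1.46-fold higher). All 3 had an unadjusted limma p under 0.01 and an adjusted p above 0.1. Beside these differences, most nad probe sets lay close to 0 in the zinc comparisons, and 5 of them shared a strong array-to-array variation inside the groups.

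**Figure D1:**
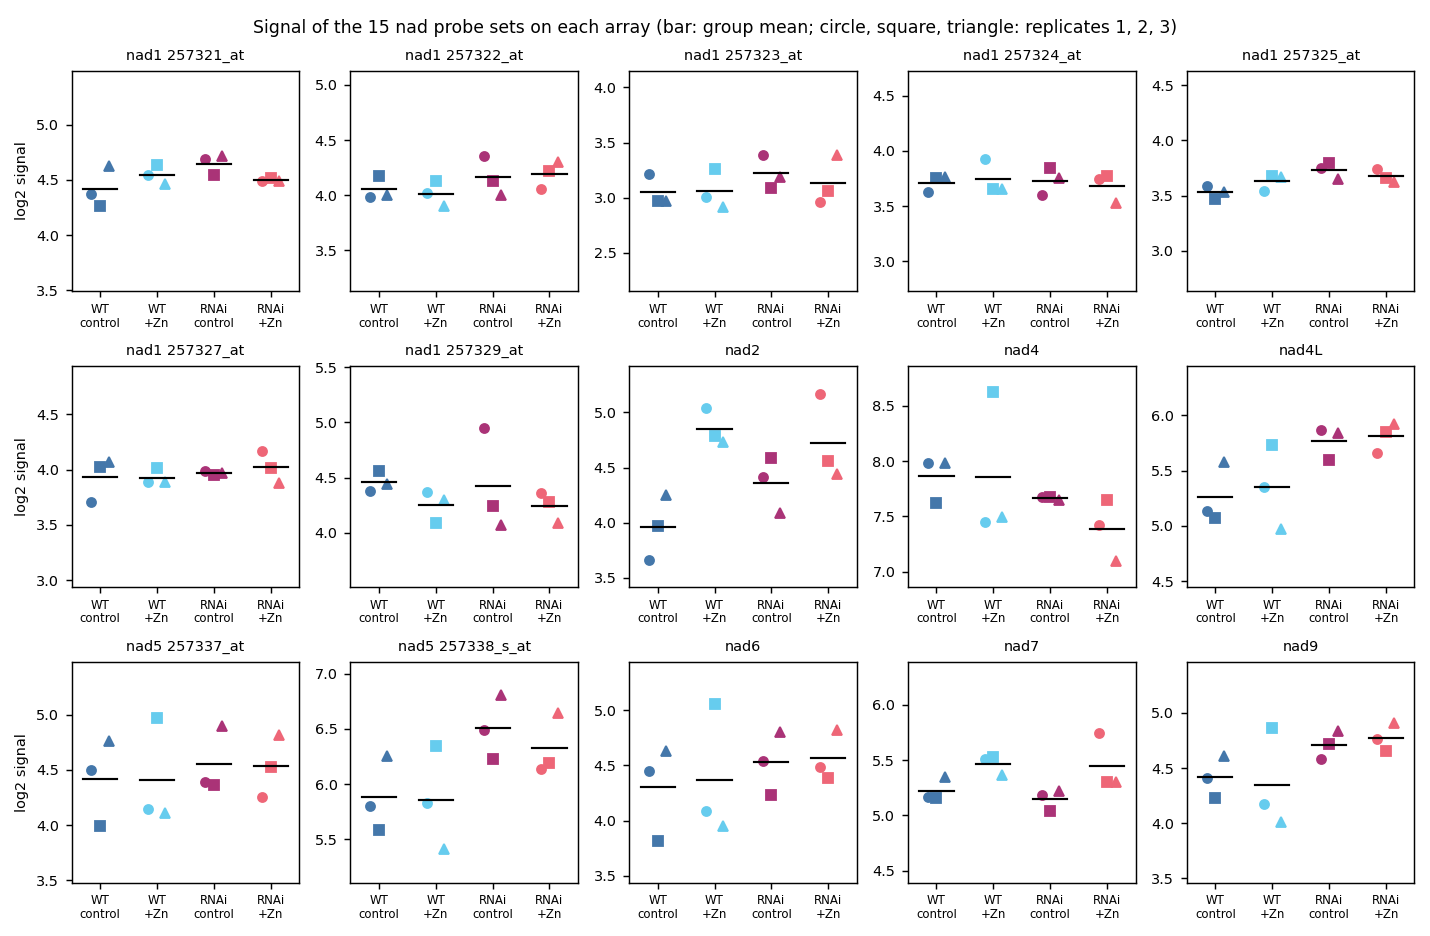
Log2 signal (vertical axis, each panel spanning 2 log2 units) of the 15 nad probe sets on the 12 arrays, by group (horizontal axis), with bars for group means. The zinc arrays of nad2 lie at or above 4.445, as does RNAi control replicate 2 (4.59). The WT zinc replicate 2 array is the highest of its group in 12 of the 15 panels. Among these are nad4, nad4L, nad6, nad9 and both nad5 probe sets.

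The zinc comparisons asked how these transcripts differed between added zinc and control medium. The nad2 signal was 3.67, 3.97 and 4.25 in WT control and 5.04, 4.79 and 4.73 in WT zinc (replicates 1, 2 and 3). All 3 WT zinc arrays were above all 3 WT control arrays, with a log2 difference of 0.89 (SE 0.20, 1.85-fold, 95% interval 0.45 to 1.33, adjusted p = 0.870). In RNAi roots nad2 was at 4.41, 4.59 and 4.09 in control medium and 5.17, 4.56 and 4.45 with zinc. These groups overlapped, since the replicate 2 control array was above the replicate 2 and 3 zinc arrays, and the difference was 0.36 (SE 0.20, 95% interval -0.078 to 0.80, adjusted p = 0.9996). It was 0.14 without RNAi zinc replicate 1 and 0.23 without RNAi control replicate 3. Over both lines the nad2 difference was 0.63 (SE 0.14, 95% interval 0.32 to 0.94, adjusted p = 0.442). The zinc effect of nad2 was 0.53 lower in RNAi than in WT (interaction -0.53, SE 0.29, adjusted p = 0.9999), so the lines were not shown to differ.

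The matrix-arm gene nad7 had the next clearest zinc difference. Its signal was 5.17, 5.15 and 5.35 in WT control and 5.51, 5.53 and 5.36 in WT zinc. In RNAi it was 5.18, 5.04 and 5.22 in control and 5.74, 5.30 and 5.30 with zinc. The zinc arrays were above the control arrays in each line, though the gap between the WT groups was narrow and 2 of the RNAi zinc arrays lay inside the range of WT control. The differences were 0.24 in WT (SE 0.12, adjusted p = 0.972) and 0.30 in RNAi (SE 0.12, adjusted p = 0.9996), the latter 0.16 without RNAi zinc replicate 1. Over both lines nad7 was 1.21-fold higher with zinc (log2 difference 0.27, SE 0.085, 95% interval 0.088 to 0.46, adjusted p = 0.508).

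No probe set of the whole array passed in a zinc comparison, so 0% were called for WT, for RNAi and for both lines together, and 0% in the interaction. At an unadjusted p under 0.05 limma gave 1 of 15 nad probe sets in WT against 5.04% of all probe sets, 1 in RNAi against 4.52%, and 2 over both lines, nad2 and nad7, against 7.62%. In the interaction it gave 0 of 15, against 2.18% of all. Groups that did not overlap were found in WT for 2 nad probe sets that were higher with zinc, nad2 and nad7, against 5.17% of all probe sets. The nad1 probe set 257329_at was lower without overlap in WT (5.13% of all), and in RNAi nad7 was higher (4.61% of all) and nad1 257321_at lower (5.41% of all). Over both lines no nad probe set parted the 6 zinc from the 6 control arrays (0.233% of all did so upwards and 0.281% downwards). Counts of 1 or 2 in 15 are too small to be told apart from these backgrounds. Over both lines the median nad difference was -0.0056, against -0.0041 over all probe sets, and 6 of 15 were positive, against 48.3% of all. The positive count was 10 without WT control replicate 3 and 12 without WT zinc replicate 3, and in WT alone it went from 8 to 14 without the latter array and to 5 without WT zinc replicate 2. In RNAi alone it went from 7 to 4 without RNAi zinc replicate 3.

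The other members were near 0 over both lines. In 10 of the 15 the zinc difference was within 0.1 of 0 on the log2 scale. The exceptions beside nad2 and nad7 were nad4 (-0.14, SE 0.18), nad1 257329_at (-0.19, SE 0.13) and nad5 257338_s_at (-0.10, SE 0.17). The intervals set what these arrays could have missed. Over all 15 members the 95% limits ran from -0.55, for nad4, to 0.94, for nad2.

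**Figure D2:**
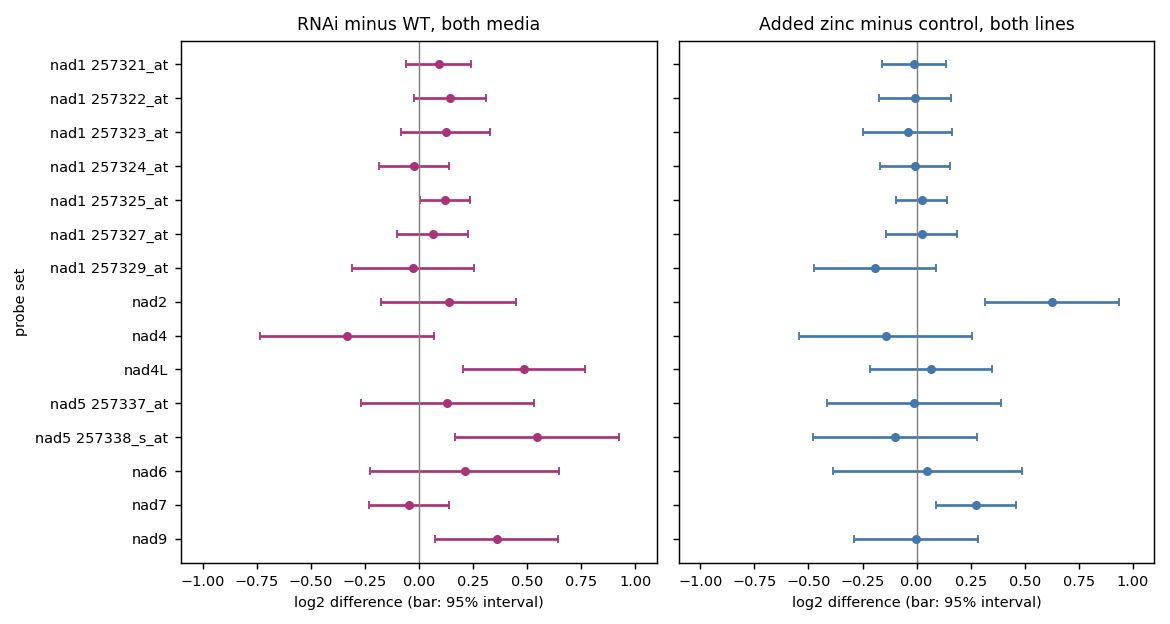
Log2 difference (horizontal axis) of each nad probe set (vertical axis) between RNAi and WT over both media, left, and between added zinc and control over both lines, right, with 95% limma intervals. On the left nad4L (0.48) and nad5 257338_s_at (0.54) lie farthest to the right, and on the right nad2 (0.63) and nad7 (0.27) do.

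The spike-in controls of the hybridization carry no plant RNA and were lower on the zinc arrays. They lay at 9.83 to 10.08 there, against 10.14 to 10.45 on the control arrays (range of array means of 18 probe sets). Their mean difference was -0.32 over both lines. With this level as a covariate nad2 was 0.49 higher with zinc over both lines (adjusted p = 0.846) and nad7 0.21 higher (adjusted p = 0.868). The nad median over both lines moved from -0.0056 to 0.24, and 14 of 15 differences were then positive, none of them called. The spike-in level parts the media, so its part cannot be told apart from that of zinc.

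The line comparisons set RNAi roots against WT roots. The nad4L signal was 5.14, 5.07 and 5.57 in WT control and 5.87, 5.60 and 5.84 in RNAi control. All RNAi control arrays were above the WT control arrays by a narrow gap. The difference was 0.51 (SE 0.18, 95% interval 0.11 to 0.91, adjusted p = 0.440). With zinc nad4L was at 5.36, 5.74 and 4.97 in WT and 5.66, 5.85 and 5.93 in RNAi, and WT zinc replicate 2 reached into the RNAi range. The difference in zinc was 0.46 (SE 0.18, adjusted p = 0.570), and 0.27 without WT zinc replicate 3. Over both media it was 0.48 (SE 0.13, 95% interval 0.20 to 0.77, adjusted p = 0.115), the smallest adjusted p of any member in any comparison.

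The nad5 probe set 257338_s_at was at 5.80, 5.58 and 6.26 in WT control and 6.49, 6.23 and 6.81 in RNAi control. Its groups overlapped by a small margin at WT replicate 3. In zinc it was at 5.83, 6.34 and 5.41 in WT and 6.14, 6.19 and 6.65 in RNAi, again with overlap. The line difference was 0.63 in control medium (SE 0.24, adjusted p = 0.487), 0.46 in zinc (SE 0.24, adjusted p = 0.727) and 0.54 over both media (SE 0.17, 95% interval 0.17 to 0.92, adjusted p = 0.179). Leaving out WT zinc replicate 3 gave 0.24 in zinc, and leaving out WT zinc replicate 2 gave 0.71. When RNAi zinc replicate 3 was left out it was 0.30. The other nad5 probe set, 257337_at, had a line difference over both media of 0.13 (SE 0.18, adjusted p = 0.826). The probe sets of this gene therefore gave unequal values, and the difference between them was not tested. The letter s in 257338_s_at marks, in the naming of these arrays, probes that can match more than 1 transcript, so its signal may not come from nad5 alone, and the same holds for the nad6 probe set 244953_s_at.

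Of the matrix-arm genes, nad9 was at 4.41, 4.23 and 4.61 in WT control and 4.58, 4.71 and 4.83 in RNAi control. With zinc it was at 4.17, 4.86 and 4.01 in WT and 4.76, 4.65 and 4.91 in RNAi. A single WT array, zinc replicate 2, was inside the RNAi zinc range, and in control medium the groups overlapped at WT replicate 3. The differences were 0.29 in control medium (SE 0.19, adjusted p = 0.715), 0.43 in zinc (SE 0.19, adjusted p = 0.618) and 0.36 over both media (SE 0.13, adjusted p = 0.251). In zinc it was 0.26 without WT zinc replicate 3 and 0.68 without WT zinc replicate 2. Without the latter array the difference over both media was 0.49 and passed (adjusted p = 0.0389), the only nad call in any setting tried. The other matrix-arm gene, nad7, differed by -0.047 between the lines over both media (SE 0.085, 95% interval -0.23 to 0.14, adjusted p = 0.875).

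The membrane gene nad4 was at 7.98, 7.62 and 7.98 on the WT control arrays and 7.45, 8.63 and 7.49 on the WT zinc arrays. It was at 7.68, 7.67 and 7.65 in the RNAi control group and 7.42, 7.65 and 7.10 in the RNAi zinc group. The WT range enclosed 4 of the 6 RNAi values, and the RNAi control arrays were close together. The difference was -0.33 over both media (SE 0.18, 95% interval -0.73 to 0.069, adjusted p = 0.482), and -0.14 without WT zinc replicate 2. In zinc it was -0.47 (SE 0.26, adjusted p = 0.744), and -0.081 without that array. In control medium it was -0.20 (adjusted p = 0.888), and -0.32 without WT control replicate 2.

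Over both media nad6 differed by 0.21 (SE 0.20, adjusted p = 0.716) and nad2 by 0.14 (SE 0.14, adjusted p = 0.745). In nad2 the line difference was 0.40 in control medium (SE 0.20, adjusted p = 0.623) and -0.13 in zinc (SE 0.20, adjusted p = 0.944). The 7 nad1 probe sets lay between -0.027 and 0.14 over both media, with SE from 0.053 to 0.13. Of these 257325_at was at 3.59, 3.47 and 3.53 in WT control and at 3.75, 3.79 and 3.65 in RNAi control, with no overlap and a difference of 0.20 (SE 0.075, adjusted p = 0.468). In zinc it differed by 0.043 (SE 0.075, adjusted p = 0.9496). The nad1 probe set 257321_at differed by 0.23 in control medium (SE 0.097, adjusted p = 0.535), with overlap. In zinc its difference was -0.046 (SE 0.097, adjusted p = 0.960), and its interaction was -0.27 (SE 0.14, adjusted p = 0.9999).

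Across the array 0.022% of probe sets were called between the lines in control medium, 0.0528% in zinc and 1.05% over both media, and none of the 15 nad probe sets was among them. At an unadjusted limma p under 0.05 there were 4 of 15 nad probe sets in control medium against 8.76% of all, 2 in zinc against 7.72%, and 4 over both media against 13.3%, all of them higher in RNAi. In control medium 2 nad probe sets were higher in RNAi without overlap, against 6.82% of all, and 0 were lower (7.09% of all). The nad median was 0.17 in control medium (12 of 15 positive), 0.076 in zinc (9 of 15) and 0.12 over both media (11 of 15). The median in zinc ran from 0.0023 without WT zinc replicate 3 to 0.13 without WT zinc replicate 2, and leaving out replicate 1 gave 0.016 for the RNAi array and 0.047 for the WT array. With each gene counted once the medians were 0.26, 0.12 and 0.17. Over all probe sets the medians were 0.0014, -0.0024 and -0.0014, with 50.5%, 49.3% and 49.5% positive. The nad probe sets share genes and vary together, so these shares carry no test.

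In control medium same-numbered WT and RNAi arrays deviated together (correlation of deviations over all probe sets 0.16, 0.29 and 0.48). Differently numbered arrays were not compared and the labels name no pairs, so pairing of the samples is not shown. A fit of the 2 control-medium groups alone called 3 probe sets of the array without the replicate number as a block and 8 with it, and with the block over all 12 arrays 3 were called. None of these calls was a nad probe set. With the block in the 2 groups alone the nad5 probe set 257338_s_at had an adjusted p of 0.0801 and nad4L of 0.173.

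Inside the groups, 5 nad probe sets varied together from array to array. This set was chosen after its values were seen and comprises nad4L, nad6, nad9 and both nad5 probe sets. All 5 were highest in replicate 3 of WT control, in replicate 2 of WT zinc and in replicate 3 of RNAi zinc, and 4 of 5 in replicate 3 of RNAi control. All 5 were lowest in replicate 2 of WT control and replicate 3 of WT zinc. The deviations from the group means had correlations between 0.801 and 0.943 in all 10 pairs of the set, as a description over 12 arrays that share their groups and hybridizations. Of all 105 nad pairs, 11 were above 0.8, and of all pairs of probe sets on the array 0.937% were.

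The deviations of the nad1 probe set 257321_at had correlations of 0.601 to 0.836 with the set, and the upper value, with nad4L, is the 11th pair above 0.8. Those of nad4 had correlations of 0.484 to 0.738 with the set, and those of nad2 of -0.381 to -0.0231. The 21 pairs of the 7 nad1 probe sets ran from -0.733 to 0.607. Their means lay between 3.12 and 4.53, below the array medians. In the set nad6 (4.44), nad5 257337_at (4.48) and nad9 (4.56) had means below them too. The nad1 correlations were no test of whether parts of nad1 varied apart. The largest single deviation was that of nad4 in WT zinc replicate 2, at 0.77 above its group mean, and nad6 was 0.69 above on the same array. In RNAi zinc replicate 1 nad2 was 0.44 and nad7 0.30 above the group mean.

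**Figure D3:**
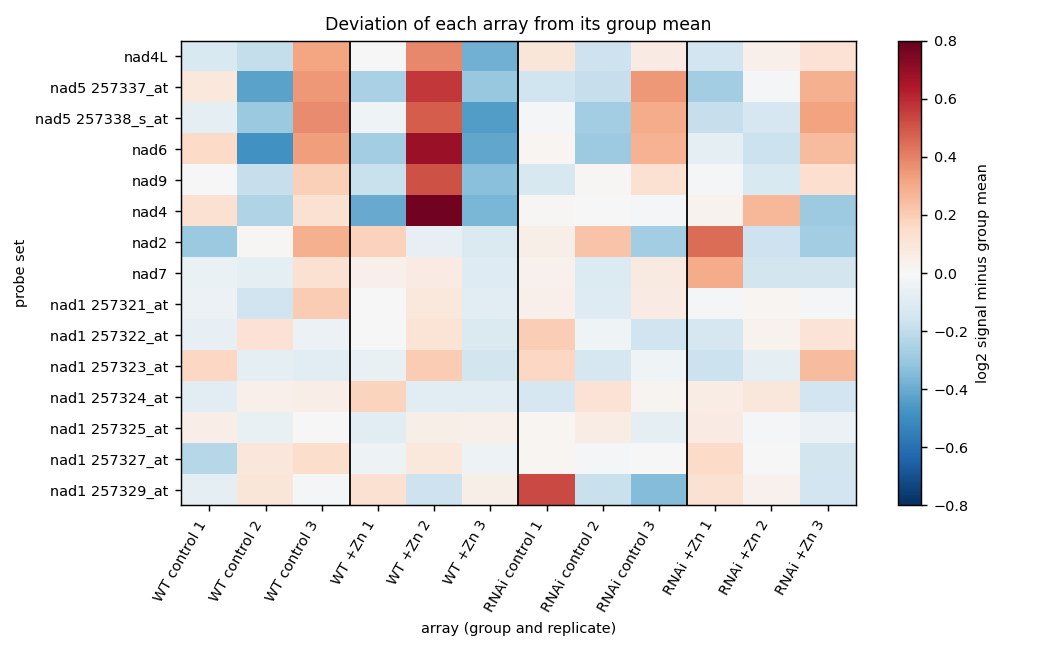
Deviation of each array (horizontal axis, 4 groups of 3) from its group mean in log2 units (colour) for the 15 nad probe sets (vertical axis). The upper 5 rows share their colours, with WT zinc replicate 2 high, while nad2 is below its group mean on that array.

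On WT zinc replicate 2 other genes of the organelles were high as well. In WT zinc replicate 2, 12 of the 15 nad probe sets were the highest of their 3 arrays, against 31.1% of all probe sets. On that array 8 of 8 other mitochondrion-encoded probe sets were highest, with a median of 0.39 above the group mean, and 46 of 66 chloroplast-encoded ones, with a median of 0.23. In contrast 1 of 27 nuclear complex I subunits was highest there, and their median was -0.12. In WT control replicate 3, 11 of 15 nad probe sets were highest (30.6% of all probe sets), while 4 of 8 other mitochondrion-encoded, 19 of 66 chloroplast-encoded (median -0.025) and 2 of 27 nuclear complex I probe sets were. In RNAi zinc replicate 3, where all 5 probe sets of the set above were highest, 7 of 15 nad, 3 of 8 other mitochondrion-encoded and 9 of 66 chloroplast-encoded probe sets (median -0.081) were, against 29% of all. RNAi control replicate 1 also had 46 of 66 chloroplast-encoded probe sets highest (median 0.14). There 6 of 15 nad and 3 of 8 other mitochondrion-encoded ones were highest, against 34.1% of all. For RNAi control replicate 3 the counts were 6 nad, 5 other mitochondrion-encoded and 11 chloroplast-encoded (median -0.075), against 34.7% of all.

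Signs of RNA quality on the arrays were read from the actin and GAPDH controls, as the 3′ minus the 5′ signal. This difference was 1.47 on WT zinc replicate 2, the highest of its group, and 1.17 on WT control replicate 3, between the 1.16 and 1.37 of the other WT control arrays. Its group means were 1.23 for WT control and 1.35 for WT zinc, against 1.38 for RNAi control and 1.46 for RNAi zinc. With this value as a covariate nad2 differed by 0.74 with zinc over both lines (adjusted p = 0.247) and nad4L by 0.44 between the lines (adjusted p = 0.247). Its part in the shared variation was not tested.

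**Figure D4:**
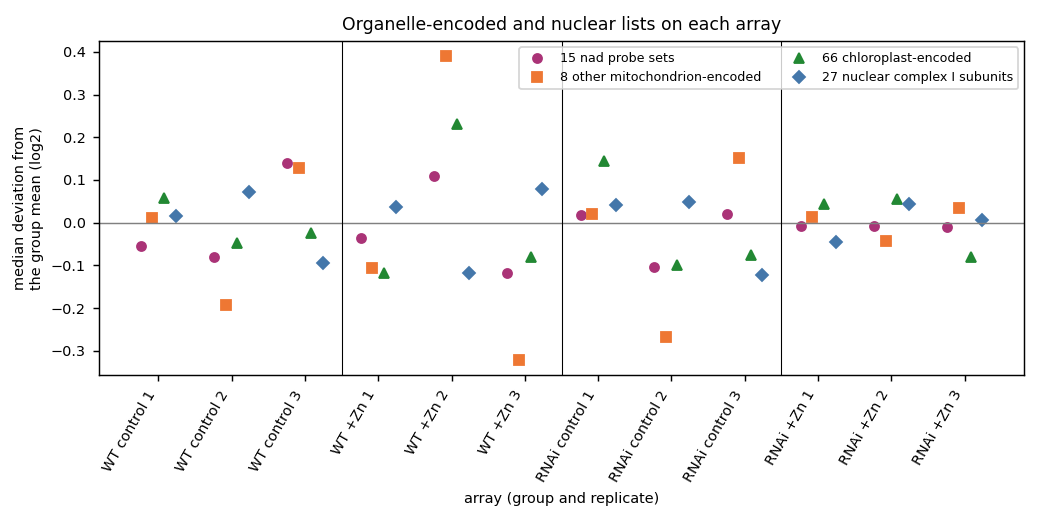
Median deviation from the group mean in log2 units (vertical axis) of 4 gene lists on each array (horizontal axis). The WT zinc replicate 2 array shows the other mitochondrion-encoded probe sets at 0.39, the nad probe sets at 0.11 and the nuclear complex I subunits at -0.12.

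The remaining genes of the respiratory chain were read from lists. Of the mitochondrial genome 8 further genes had a named probe set, cox1 and cox2 of cytochrome c oxidase, the maturase matR, orfX, and ccb203, ccb206, ccb382 and ccb452 of cytochrome c maturation. None was called in any of the 7 comparisons. Over both lines their median zinc difference was 0.0011, from -0.34 for ccb382 to 0.19 for ccb203. Between the lines ccb452 was 0.59 higher in RNAi over both media (SE 0.16, adjusted p = 0.117) and ccb382 was 0.59 lower (SE 0.17, adjusted p = 0.145). The line differences on this list thus had both signs, and the list median was -0.021 with 2 of 8 positive. The probe sets of ccb452, matR and orfX also carry the letter s, so their signals may not come from these genes alone.

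Of 45 nuclear complex I subunits 27 had a named probe set, and 0 were called with limma in any comparison. Over both media 1 was higher and 4 were lower in RNAi at an unadjusted p under 0.05, against 13.3% of all probe sets in either direction. The median was -0.032 and 7 of 27 were positive, against 49.5% of all. AT3G03100, an accessory subunit of complex I, was 1.19-fold lower in RNAi (log2 difference -0.25, SE 0.059, adjusted p = 0.0722). Over both lines the zinc median was -0.027, between -0.15 for AT5G11770, the subunit called PSST in other species, and 0.16 for AT3G06310.

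Of the 12 listed alternative NADH dehydrogenases and oxidases, which bypass complex I or the cytochrome pathway without pumping protons, 5 dehydrogenases had a named probe set and none was called. Their zinc differences over both lines ran from -0.21 for NDB3 to 0.028 for NDB2, and their line median over both media was -0.11, with 0 of 5 positive. Of the nuclear subunits of complexes II to V 6 of 14 genes had a named probe set, 7 in all, and none was called. SDH1-1, the flavoprotein of succinate dehydrogenase, was 1.22-fold lower in RNAi over both media without overlap, as were 1% of all probe sets (log2 difference -0.29, SE 0.063, adjusted p = 0.0552). Of the other 6, 3 were higher and 3 lower. A probe set of SDH2-1, an iron-sulphur subunit of the same enzyme, was 0.26 higher in RNAi (SE 0.11, adjusted p = 0.308), and its other probe set differed by -0.11 (adjusted p = 0.583). With zinc these 7 ranged from -0.10 for AT3G15640, a cytochrome c oxidase subunit, to 0.16 for SDH2-2, another iron-sulphur subunit of succinate dehydrogenase.

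Nuclear factors that make or splice mitochondrial transcripts were measured for 6 of 15 listed genes, none of them called. Their zinc differences over both lines lay between -0.096 for AT5G46920, the intron maturase nMAT2, and -0.013 for OTP43, which is needed for splicing of nad1. Of 8 marker genes of mitochondrial dysfunction 1 had a named probe set, AT2G21640, and it differed by 0.059 with zinc and by -0.060 between the lines. The plastid genome encodes subunits of a related NDH complex, and 10 of these ndh genes had a single-gene probe set. Over both lines all 10 were lower with zinc (median -0.064), from -0.28 for ndhI to -0.0061 for ndhH, with 0 called. At an unadjusted p under 0.05 limma gave 2 of 10, against 7.62% of all probe sets, of which 48.3% were positive. Apart from ndhC (9.51 in WT control), the ndh means in WT control lay between 3.06 and 4.56, below the array medians. Such low signals limit what their shared direction can show. The 56 other chloroplast-encoded probe sets had a zinc median of -0.079, from -0.70 for petG to 0.20 for rpoC2, and none was called.

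The genes most like nad2 over the 12 arrays, among 13498 other single-gene probe sets, were AT5G42620 (Pearson r = 0.953), AT3G10020 (0.913), AT1G68730 (0.908), AT4G05300 (0.904) and AT2G06570 (0.900). Those most like the mean of the 15 nad probe sets were AT1G75210 (0.919), SPPA (0.915), AT2G29065 (0.879), SUFE2 (0.862) and ccb452 (0.860). These values describe the arrays, were picked as the highest of many and carry no test.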

How the data were processed

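The deposited table held log2 expression values per probe set, 22810 in all, and per the submitters' processing notes the authors used RMA and the affy package. Versions and settings for them were not given in the sources used here. Nothing was rescaled or filtered, and 64 control probe sets were left out of the tests. The annotation table paired 13513 probe sets with 1 gene, 503 with several and listed none for 8730. As it gave no locus tags, organelle genes were matched by symbol. The older names ccb and orfX and the symbols of succinate dehydrogenase genes were added after the annotation had been seen.

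The 4 group means were modelled on 12 arrays by limma (version 3.58.1, R 4.3.3), using eBayes and two-sided tests, with 8 residual degrees of freedom and a prior of 3.79. The procedure was tested on simulated data. Alternatives were another normalization, a filter on dim probe sets, a variance trend, fits of the compared groups alone, the replicate block, covariates for spike-in level and, added after seeing the data, for the 3′ minus 5′ control difference, and each array left out. The number of arrays limits the precision. Named were all nad probe sets, list members past the threshold or else the highest and lowest with zinc over both lines, and the 5 genes most alike. ccb452, AT3G03100, SDH1-1 and SDH2-1 were named after their values were seen. The members and lists were chosen with earlier results of these data known.

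Same-numbered arrays had positive correlations throughout between the lines in control medium alone, which does not show that they were pairs. In zinc their correlations between the lines were 0.34, 0.0091 and -0.021. Between the media they ran from -0.45 to -0.12 in WT and from -0.084 to 0.41 in RNAi.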

Additional observations from a re-analysis of the deposited data

How the results depend on the processing

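The count of nad probe sets called was 0 in 111 of 112 alternative fits and 1 (nad9) between the lines over both media without WT zinc replicate 2. The direction of 19 named values (nad2 and nad7 with zinc and nad2 in the interaction, and nad4, nad4L, nad5 257338_s_at and nad9 between the lines) was kept in 290 of 290 refits, and 289 kept their side of the threshold. The variance trend, the dim filter, the compared groups alone and the replicate block leave a difference unchanged. In those refits the direction was fixed in advance. With single arrays left out nad2 with zinc over both lines ran from 0.52 to 0.70, and nad4L between the lines over both media from 0.39 to 0.58. The dim filter kept 3 nad probe sets (nad4, nad4L and nad5 257338_s_at), so the nad medians could not be recomputed under it. With the spike-in covariate the nad zinc median was 0.23 in RNAi and 0.24 over both lines.

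Counts over the whole array moved more. In control medium 5 probe sets were called between the lines, against 3 with the dim filter, with the 2 groups alone, with the replicate block over all arrays or with the spike-in covariate, 8 with the block in control medium, 11 with the variance trend, and 1 to 20 with single arrays left out, where each of the 6 arrays moved the count by over 1.5 times. In zinc 12 were called, 2 to 29 with single arrays left out (2 without WT zinc replicate 1, 29 without WT zinc replicate 3, 4 and 6 without RNAi zinc replicates 2 and 3). Over both media 239 were called, 87 with the 3′ minus 5′ covariate and 68 to 267 with single arrays left out, at most 138 without WT zinc replicates 1 or 2, any RNAi control array, or RNAi zinc replicates 2 or 3. For zinc over both lines 0 were called, 2 under the replicate block, while leaving out single arrays gave 0 to 4 (4 without RNAi control replicate 3, 1 without WT zinc replicate 3). In WT this range was 0 to 1, with 1 call without WT control replicate 1.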

Other observations

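The array also held 2 probe sets annotated to nad1 together with a nuclear locus, 265229_s_at with AT2G07701 and 266013_s_at with AT2G07702, which were outside the rule for members. The probe set 266013_s_at was at 3.68, 3.69 and 3.73 on the WT control arrays and 3.85, 3.62 and 3.68 on the WT zinc arrays. It was at 3.48, 3.58 and 3.51 in the RNAi control group and 3.57, 3.41 and 3.55 in the RNAi zinc group. All 6 RNAi arrays were below all 6 WT arrays, as for 1% of all probe sets. The line difference over both media was -0.19 (SE 0.057, limma adjusted p = 0.147), opposite in sign to the nad median of 0.12. The probe set 265229_s_at differed by -0.023. Both were picked after their values were seen.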
